A study of Homo sapiens with 2 samples.

Results

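The 10 genes described here encode regulators of cell death of the BCL2 family: *BIK*, *BID*, *BAD*, *BMF*, *BCL2L11*, *PMAIP1*, *HRK*, *BAK1*, *MCL1*, and *BCL2L1*. They were chosen by name among the 33538 genes of the deposited tables, and each name was listed once in both tables. HCT116, a human colon cancer cell line, was treated with 0.5 µM of decitabine (DAC), a deoxycytidine analog that traps DNA methyltransferases, on days 1 and 3, or was mock-treated. DAC was withdrawn by a medium change on day 5, and live cells were taken for single-cell RNA sequencing on day 7. Dead cells were thus not meant to enter the libraries. Each condition was represented by 1 library, and the libraries held 1783 mock-treated and 1751 DAC-treated cells.

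Proteins of the BCL2 family decide whether the outer membrane of mitochondria is opened during apoptosis. The effector BAK1 forms pores in that membrane, and the anti-death proteins MCL1 and BCL-XL, the latter encoded by *BCL2L1*, hold effectors and BH3-only proteins in check. The BH3-only proteins, which share only a short BH3 segment with the rest of the family, sense stress and either activate the effectors or occupy the anti-death proteins. By this division, 7 of the 10 genes encode BH3-only proteins, 1 encodes an effector, and 2 encode anti-death proteins. Several of these proteins are regulated by cleavage, phosphorylation, or degradation, which transcript counts do not show. *BCL2L1*, *MCL1*, and *BCL2L11* also have splice forms, which were not separated by counts per gene.

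Each transcript molecule was counted once, through a unique molecular identifier (UMI) placed near its poly(A) tail, such that the length of a gene does not enter its count. The mock-treated library contained 49911689 UMIs and the DAC-treated library 59046165 UMIs, with medians of 27899 and 35340 UMIs per cell. Levels are therefore given as CPM, the usual scale on which the UMIs of a gene are divided by the total of its library. In 311 cells of the mock-treated and 319 of the DAC-treated library, over 50% of the UMIs were mitochondrial. Both libraries shared 12 cell barcodes, and every CPM ratio of the members stayed within its interval when these cells were left out. Both tables held more barcodes than the number of live cells that the methods of the study name for a library. Of 9 colon epithelial markers, *KRT18* was detected in 94.8% of mock-treated and 98.7% of DAC-treated cells and *EPCAM* in 85.7% and 77.1%, whereas *CDX1* was at 0 in mock-treated cells. The 10 markers of leukocytes, fibroblasts, endothelium, and erythroid cells had 556 UMIs together in the mock-treated library and 1360 in the other, of which *COL1A1* made up 533 and 1112. The part of these markers in the results was not tested. *PTPRC*, *CD3E*, *COL1A2*, *DCN*, *PECAM1*, and *HBB* were at 0 in mock-treated cells and had from 5 (*HBB*) to 46 UMIs (*PECAM1*) in DAC-treated cells, in which all 10 markers were detected, beside 4 in the mock-treated library.

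Cells cannot stand in for replicate cultures, and the conditions were therefore compared by size alone, without a test. Any difference between the cultures or their preparation cannot be told apart from that of DAC. Intervals of 95% are exact (Poisson for UMIs, conditional binomial for ratios, Clopper-Pearson for shares of cells) and cover counting error only, not the difference that another pair of cultures would show. A ratio was counted as different at 1.5-fold or more. Over the 12825 genes that reached 100 UMIs in at least one library, 31.3% were higher and 13.7% were lower in DAC-treated cells by that limit, and the median ratio was 1.19.

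Against this background, the family did not move as a block. Of the 9 members with at least 100 UMIs, 2 were higher in DAC-treated cells, *BAK1* and *BAD*, 1 was lower, *HRK*, and 6 were within 1.5-fold. These counts are no larger a share than the 31.3% and 13.7% of all genes. With 2-fold as the limit, *BAK1* was the only member that was higher, against 16.4% of all genes, and *HRK* the only one that was lower, against 6.58%. The median log2 ratio of the 9 members was 0.39, beside 0.25 over all genes. When libraries were scaled by the median of ratios, which lowers every log2 ratio by 0.18, the ratio of *BAD* was 1.49, and 1 member was higher and 1 was lower.

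**Figure D1:**
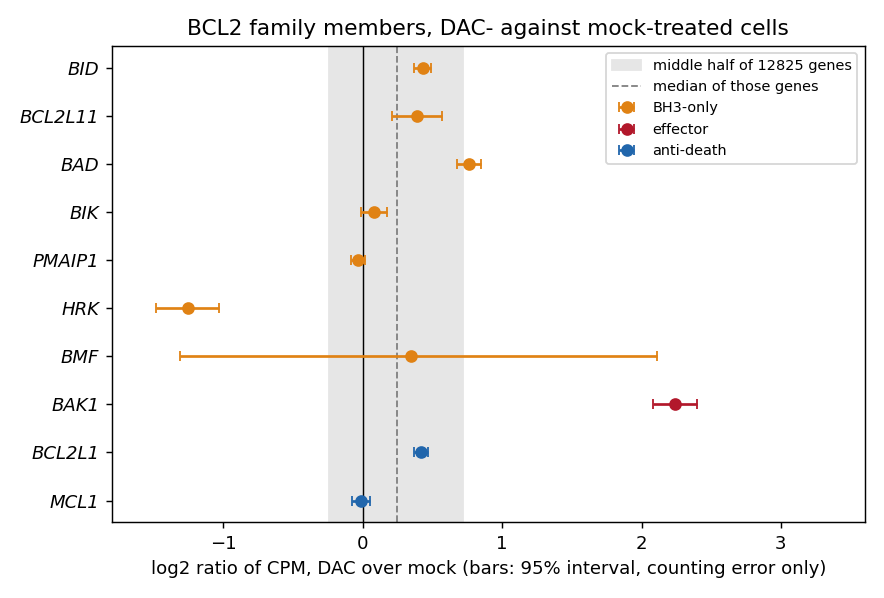
Log2 ratio of CPM in DAC-treated over mock-treated cells (horizontal axis) for each of the 10 members, colored by role, with 95% intervals of counting error. The shaded band runs from the lower to the upper quartile of the 12825 background genes, and only *BAK1*, *BAD*, and *HRK* have point values outside it.

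*BAK1* (ENSG00000030110, chromosome 6 of hg38 from 33572547 to 33580293, minus strand) encodes the pore-forming effector and showed the largest difference of the 10 genes. The mock-treated library had 398 UMIs of it (360 to 439) and the DAC-treated library 2225 (2134 to 2319), or 7.97 and 37.7 CPM. The ratio was 4.73 (95% confidence interval 4.25 to 5.27), higher than that of 93.9% of the background genes. Under every scaling and cell filter tried, the ratio remained between 4.16 and 5.24. Among the UMIs of all 10 members, the share of *BAK1* was 1.74% in the mock-treated and 6.67% in the DAC-treated library.

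The higher level of *BAK1* was spread over many cells. Its UMIs were present in 331 mock-treated cells (18.6%, 95% confidence interval 16.8 to 20.4%) and in 920 DAC-treated cells (52.5%, 50.2 to 54.9%). To compare shares at one depth, 10000 UMIs were drawn from each cell, which left 1388 mock-treated and 1293 DAC-treated cells. At this depth, *BAK1* was detected in 7.56% of mock-treated cells (6.23 to 9.08%) and 29.2% of DAC-treated cells (26.8 to 31.8%), a difference of 21.7 percentage points (18.8 to 24.5). No mock-treated cell and 16 DAC-treated cells then had 3 UMIs or more, and the exact interval of 0 of 1388 cells reached 0.265%. As deposited, 8 mock-treated cells (0.449%) and 318 DAC-treated cells (18.2%) had 3 UMIs or more. The cells with 10000 UMIs or more included 90 mock-treated and 173 DAC-treated cells dominated by mitochondrial UMIs, and without them the shares were 7.94% and 31.1%.

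The ratio of *BAK1* had overlapping intervals in cells of different depth. When the cells of each library were divided into 3 groups of equal size by total UMIs, it was 5.02 (3.17 to 8.22) in the group with the fewest UMIs, 4.75 (3.88 to 5.86) in the middle group, and 4.59 (4.02 to 5.26) in the group with the most. The highest count in 1 cell was 3 UMIs in the mock-treated and 15 UMIs in the DAC-treated library. No cell type that should lack these genes is present in a culture of 1 line, so the share due to free RNA in droplets was not measured.

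Within the annotation (GENCODE release 44), *BAK1* overlaps *GGNBP1* on the opposite strand, and the processed pseudogenes *BAK1P1* on chromosome 20 and *BAK1P2* on chromosome 11 carry its name. *GGNBP1*, *BAK1P1*, and *BAK1P2* were not listed under these names in the deposited data. Whether the counting used the strand is not given in the sources used here, nor how reads shared with the pseudogenes were treated, so the count of *BAK1* is uncertain to that extent.

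Because DAC acts on methylation at CG dinucleotides, the windows around the transcription start of the members were examined for this letter pair. Windows of 300 bases, from 250 bases before to 50 bases after the start, were taken from RefSeq (GRCh38.p14) and were matched for 8 of the 10 members, *BIK* and *MCL1* being unmatched. The 250 bases before the start are shown, 5′ to 3′ with CG in capitals, for *BAK1* as the member with the largest ratio, for *HRK* as the one with a lower level, and for *PMAIP1* as the member with the most CG in its window.

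BAK1 (chr6:33580277-33580526, minus strand): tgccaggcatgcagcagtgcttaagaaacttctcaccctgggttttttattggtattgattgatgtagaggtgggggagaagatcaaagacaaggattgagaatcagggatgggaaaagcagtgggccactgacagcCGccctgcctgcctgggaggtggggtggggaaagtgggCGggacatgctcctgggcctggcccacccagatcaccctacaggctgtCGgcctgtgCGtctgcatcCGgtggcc

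HRK (chr12:116881442-116881691, minus strand): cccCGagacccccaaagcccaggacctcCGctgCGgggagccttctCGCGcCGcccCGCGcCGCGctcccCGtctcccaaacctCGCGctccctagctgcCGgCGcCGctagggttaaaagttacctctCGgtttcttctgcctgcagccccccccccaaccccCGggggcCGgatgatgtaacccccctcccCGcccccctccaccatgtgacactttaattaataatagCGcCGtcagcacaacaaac

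PMAIP1 (chr18:59899746-59899995, plus strand): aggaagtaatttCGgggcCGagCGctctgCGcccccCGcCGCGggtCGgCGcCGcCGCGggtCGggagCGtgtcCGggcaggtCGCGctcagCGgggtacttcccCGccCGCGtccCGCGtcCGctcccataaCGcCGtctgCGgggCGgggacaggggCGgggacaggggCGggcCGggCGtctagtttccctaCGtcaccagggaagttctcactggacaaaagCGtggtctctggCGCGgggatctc

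The window of *BAK1* held 7 CG, and 63.2% of the 35116 windows of all genes held as many or more. Its sequence before the start, with 5 CG, is sparse beside the 22 of *HRK* and the 36 of *PMAIP1*. The windows of *HRK*, *BCL2L11*, and *PMAIP1* held 25, 39, and 42 CG, beside a median of 14 over all windows. The windows of *BAD*, the other member that was higher by 1.5-fold, held 21 and 24 CG, and those of *BCL2L1* held 16 and 20. *BAK1* thus had fewer CG than the median window, and *BAD* had more. A count of CG does not show whether a window was methylated, and a link between CG and the ratios was not tested. Where a gene had several windows, as *BID*, *BAD*, *BMF*, and *BCL2L1* did, the counts differed between them, from 6 to 37 CG for *BID* and from 1 to 31 for *BMF*. The letters GGGCGG, searched on both strands, were present in the windows of *BAK1*, *HRK*, and *PMAIP1*, and in 45.0% of all windows. Methylation of these windows was not measured in these libraries.

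Among the BH3-only genes, *BID* and *BCL2L11* encode activators of the effectors. *BID*, whose protein is cleaved by caspase-8 and links death receptors to mitochondria, had 3345 UMIs in mock-treated and 5330 in DAC-treated cells, or 67.0 and 90.3 CPM. The ratio was 1.35 (1.29 to 1.41), within 1.5-fold but above the median gene. At 10000 UMIs per cell, it was detected in 47.0% of mock-treated and 53.7% of DAC-treated cells, a difference of 6.63 points (2.84 to 10.4). Without the thinning the shares were 65.8% and 65.3%. *BCL2L11*, which encodes BIM, was a lowly expressed member with 427 and 661 UMIs, or 8.56 and 11.2 CPM. Its ratio was 1.31 (1.16 to 1.48), and its shares of cells at 10000 UMIs were 8.50% and 11.6%. Without thinning, they were 19.5% and 25.2%. It lies within *MIR4435-2HG*, a non-coding gene of the opposite strand, which had 1060 and 3689 UMIs. Both activators were thus within the 1.5-fold limit, and with the median of ratios their ratios were 1.19 and 1.15.

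*BAD*, whose protein occupies BCL-XL when it is not bound by 14-3-3 proteins, had 1650 UMIs (33.1 CPM) in mock-treated and 3305 UMIs (56.0 CPM) in DAC-treated cells. The ratio was 1.69 (1.60 to 1.80), and it was between 1.49 and 1.81 over all scalings and cell filters. At 10000 UMIs per cell, the share of cells with a UMI was 26.9% (24.6 to 29.4%) in mock-treated and 38.5% (35.9 to 41.2%) in DAC-treated cells. Without thinning, the shares were 47.8% and 57.9%. It overlaps *GPR137* on the opposite strand, which had 279 and 996 UMIs. *BIK*, which encodes a BH3-only protein of the endoplasmic reticulum, had 1621 and 2030 UMIs, or 32.5 and 34.4 CPM. Its ratio of 1.06 (0.991 to 1.13) had an interval that included 1, and was on either side of 1 over the scalings and filters, from 0.932 to 1.17. The same number of cells, 803, had a UMI of *BIK* in each library.

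*PMAIP1*, which encodes NOXA, a BH3-only binder of MCL1, was the most abundant member in mock-treated cells. It had 6039 UMIs (121 CPM) in mock-treated and 6963 UMIs (118 CPM) in DAC-treated cells. The ratio was 0.975 (0.941 to 1.01), and it changed direction over the scalings and filters, from 0.858 to 1.09. The total thus hardly differed, whereas shares of cells depended on the depth and limit used. At 10000 UMIs per cell, cells with a UMI were 61.2% of mock-treated (58.5 to 63.7%) and 52.9% of DAC-treated cells (50.1 to 55.7%), a difference of -8.27 points (-12.0 to -4.52). Cells with 5 UMIs or more were 32 of 1388 mock-treated and 50 of 1293 DAC-treated cells. By depth, the ratio of *PMAIP1* was 1.38 (1.16 to 1.65) in the group of cells with the fewest UMIs, 0.915 (0.859 to 0.973) in the middle group, and 0.954 (0.914 to 0.996) in the group with the most, and so was on either side of 1. These groups were not matched in depth between the libraries, with medians of 7375 and 2179 UMIs in the group with the fewest. Among cells under 10000 UMIs, 221 mock-treated and 146 DAC-treated cells were dominated by mitochondrial UMIs. Over all mock-treated cells so dominated, at any depth, *PMAIP1* had 33.3 CPM, beside 126 CPM in the other mock-treated cells. The part of these in the ratio was not tested. The 5% of cells with the most *PMAIP1* UMIs held 25.5% of them in the mock-treated library and 32.9% in the DAC-treated library. With 1007 UMIs drawn per cell, the shares of cells with a UMI were 8.75% and 9.43%, the opposite direction, and without thinning they were 70.3% and 66.7%. At 10000 UMIs per cell without the cells dominated by mitochondrial UMIs, the shares of cells were 63.8% and 56.6%. With 3 UMIs as the limit at 10000 UMIs per cell, shares were 12.4% and 12.7%, and so not lower in DAC-treated cells. As deposited, cells with 3 UMIs or more were 44.4% of mock-treated and 42.3% of DAC-treated cells. The highest count was 98 UMIs in a mock-treated and 66 UMIs in a DAC-treated cell.

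*HRK* (ENSG00000135116, chromosome 12 from 116856144 to 116881441, minus strand) encodes a BH3-only protein best known from neurons, which binds BCL-XL. Its UMIs numbered 486 (444 to 531) in the mock-treated and 241 (212 to 273) in the DAC-treated library, or 9.74 and 4.08 CPM. The level was 2.39-fold higher in mock-treated cells (2.04 to 2.80), and the ratio of DAC-treated over mock-treated cells, 0.419, was between 0.359 and 0.432 over all scalings and filters. Of the background genes, 4.12% had a lower ratio. At 10000 UMIs per cell, cells with a UMI were 8.07% (6.69 to 9.63%) in the mock-treated and 3.56% (2.62 to 4.72%) in the DAC-treated library. Without thinning, they were 20.1% and 11.4%. The ratio was 0.359, 0.391, and 0.434 in the groups of cells with the fewest, middle, and most UMIs, so that *HRK* was lower in DAC-treated cells in each group. No other annotated gene overlaps *HRK*.

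*BMF*, whose protein is held by a dynein light chain, had 6 UMIs in mock-treated cells (2.20 to 13.1) and 9 UMIs in DAC-treated cells (4.12 to 17.1), each in a different cell. A difference was not detectable at this depth, since the interval of the ratio ran from 0.403 to 4.33.

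**Figure D2:**
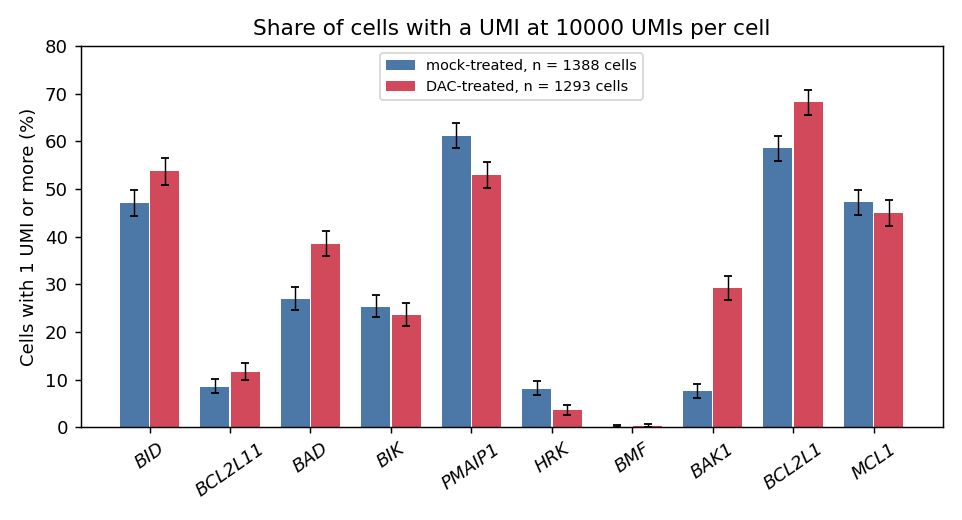
Share of cells with 1 UMI or more (vertical axis, %) of each member after 10000 UMIs were drawn from each cell, with 95% Clopper-Pearson intervals of counting error. *BAK1* moves from 7.56% of mock-treated to 29.2% of DAC-treated cells, and *PMAIP1* and *HRK* are the members whose intervals lie lower in DAC-treated cells.

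Neither anti-death gene reached the 1.5-fold limit. *BCL2L1* had 5392 UMIs (108 CPM) in mock-treated and 8509 UMIs (144 CPM) in DAC-treated cells, a ratio of 1.33 (1.29 to 1.38). Cells with a UMI at 10000 UMIs per cell were 58.5% (55.9 to 61.1%) and 68.2% (65.6 to 70.7%), and cells with 3 UMIs or more were 10.3% and 18.5%. The difference of 9.71 points was 5.27 points at 20000 UMIs per cell and 1.70 points without thinning, and the ratio was 1.17 with the median of ratios. *MCL1*, which encodes a short-lived protein, had 3479 UMIs (69.7 CPM) and 4073 UMIs (69.0 CPM), a ratio of 0.990 (0.946 to 1.04). Over scalings and filters the ratio of *MCL1* lay between 0.871 and 1.10, on either side of 1. Its share of cells at 10000 UMIs differed by -2.18 points (-5.94 to 1.60). The end of *MCL1* lies within *ADAMTSL4-AS1*, a non-coding gene of the same strand, and reads of both cannot be told apart there. *ADAMTSL4-AS1* was not listed under this name in the deposited data.

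**Figure D3:**
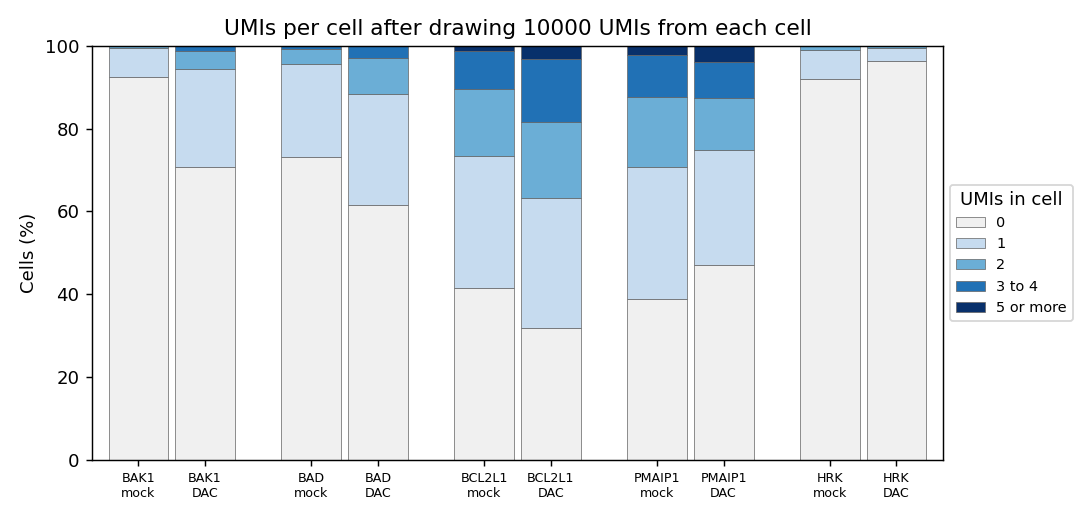
Share of cells (vertical axis, %) with 0, 1, 2, 3 to 4, and 5 or more UMIs of 5 members in mock- and DAC-treated cells, after 10000 UMIs were drawn from each cell. For *PMAIP1*, both the class without a UMI and the class with 5 UMIs or more are larger in DAC-treated cells, at 47.1% and 3.87% beside 38.8% and 2.31%.

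The order of the levels also differed between the libraries. In mock-treated cells it ran from *PMAIP1* (121 CPM) and *BCL2L1* (108 CPM) through *MCL1*, *BID*, *BAD*, *BIK*, *HRK*, *BCL2L11*, and *BAK1* to *BMF* (0.120 CPM). Intervals overlapped between *MCL1* and *BID*, *BAD* and *BIK*, *HRK* and *BCL2L11*, and *BCL2L11* and *BAK1*. In DAC-treated cells it ran from *BCL2L1* (144 CPM) and *PMAIP1* (118 CPM) through *BID*, *MCL1*, *BAD*, *BAK1*, *BIK*, *BCL2L11*, and *HRK* to *BMF* (0.152 CPM), with no overlap of intervals between neighbors. Hence *BAK1* moved from below *HRK* to above *BIK*.

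Summed by role, the 7 BH3-only genes had 272 CPM in mock-treated and 314 CPM in DAC-treated cells, a ratio of 1.15 (1.13 to 1.18). The 2 anti-death genes had 178 and 213 CPM, a ratio of 1.20 (1.17 to 1.23). There were 1.53 BH3-only UMIs for each anti-death UMI in the mock-treated and 1.47 in the DAC-treated library. With *BAK1* added to the BH3-only genes, the numbers were 1.58 and 1.65. Both sums had ratios near the 1.19 of the median gene. They cover the members only. *BBC3*, a further BH3-only gene, had 2354 and 1151 UMIs (ratio 0.413), and the anti-death gene *BCL2* had 38 and 110. With such genes counted, the sums and their balance would differ. *PMAIP1*, with a ratio of 0.975, made up 44.5% of the BH3-only UMIs in the mock-treated and 37.6% in the DAC-treated library, and the sum hides the ratios of *BAD* (1.69) and *HRK* (0.419). A mock-treated and a DAC-treated cell each had a median of 3 of the 10 members detected at 10000 UMIs, with quartiles of 2 and 4 and means of 2.90 and 3.27. Without thinning, the medians were 5 and 6.

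Correlations between members across cells were low. Over the 45 pairs of members, the Pearson correlation of log2(CPM/100 + 1) had a median of 0.03 over 1388 mock-treated cells and 0.04 over 1293 DAC-treated cells with 10000 UMIs or more. The highest values were 0.22 for *PMAIP1* and *BCL2L1* in mock-treated cells and 0.23 for *BAD* and *BCL2L1* in DAC-treated cells. *BMF*, *HRK*, *BCL2L11*, and *BAK1* had a median of 0 UMIs in mock-treated cells of this depth, and low values in sparse counts do not show that members varied independently. Since cells of a library share its depth and preparation, these values describe the libraries only. Each member with a mean of at least 0.5 UMI was also compared with all genes of such a mean, 6237 in mock-treated and 7607 in DAC-treated cells. The genes most like *PMAIP1* were *GADD45A* and *TNFRSF12A* in both libraries, with r of 0.38 and 0.36 in mock-treated and 0.33 and 0.30 in DAC-treated cells. The third was *MTHFD2* (0.34) in mock-treated and *CDKN1A* (0.28) in DAC-treated cells. For *BCL2L1*, *EZR*, the gene of the membrane-actin linker ezrin, was first in mock-treated cells (0.47) and second, after *BRI3* (0.42), in DAC-treated cells (0.41). For *BAK1*, which passed the mean in DAC-treated cells only, the genes were *RPS19BP1* (0.32), *KRT10* (0.31), and *SH3BGRL3* (0.30). *BID* was most like *FABP5* (0.33) in mock-treated and *TSPO* (0.45) in DAC-treated cells, and *BAD* most like *ATP5PF* (0.25) and *GPX4* (0.40). *BIK* was most like *S100A6* in both libraries (0.28 and 0.34). *MCL1* was most like *PPP1R15A* (0.23) and *BRD2* (0.30), and *BCL2L11* was at 0.18 with *ISG20L2* in DAC-treated cells. Most of these members also correlated with total UMIs per cell, with r between 0.14 and 0.30 for *BIK*, *BID*, *BAD*, *PMAIP1*, and *BCL2L1* in mock-treated cells, so the part of depth in these values was not separated.

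Cells in which mitochondrial genes held more than 50% of the UMIs were compared with the other cells of the same library by the share of a member among non-mitochondrial UMIs. The median ratio of all genes in this comparison was 1.39 in mock-treated and 1.5 in DAC-treated cells. *MCL1* was 2.42-fold (2.05 to 2.85) and 1.84-fold (1.60 to 2.12) higher in the cells dominated by mitochondrial UMIs, and *BCL2L11* was 3.76-fold (2.49 to 5.49) and 1.85-fold (1.27 to 2.61) higher. *BAD*, with ratios of 0.283 (0.129 to 0.539) and 0.481 (0.352 to 0.643), and *BID*, with 0.736 (0.540 to 0.981) and 0.652 (0.529 to 0.795), were lower in them. The upper quartile of all genes was 2.33 in mock-treated and 2.47 in DAC-treated cells, so that *BCL2L11* and *MCL1* were above it in mock-treated cells and below it in DAC-treated cells. By CPM over all UMIs, the same comparison gave *MCL1* ratios of 0.905 (0.766 to 1.06) in mock-treated and 0.743 (0.644 to 0.854) in DAC-treated cells. Those of *BCL2L11* were 1.40 (0.928 to 2.05) and 0.745 (0.511 to 1.05). Their side of 1 thus depended on the scale, except for *BCL2L11* in mock-treated cells, whereas *BAD* and *BID* were lower on both scales. On the scale of CPM over all UMIs, *BAK1* was 4.8-fold (4.31 to 5.37) higher in DAC-treated cells among cells with 50% or less mitochondrial UMIs and 3.85-fold (2.03 to 8.08) higher among the others. Other members had more unequal point values in this division, though a test of the difference was not made. *BAD* had 1.71 (1.61 to 1.82) in cells with 50% or less mitochondrial UMIs and 3.14 (1.52 to 7.30) in the others, in which it had only 9 and 46 UMIs. *BCL2L1* had 1.34 (1.30 to 1.39) and 1.92 (1.46 to 2.57), and *PMAIP1* had 0.978 (0.945 to 1.01) and 1.53 (1.18 to 2.0). *BCL2L11* and *BIK* went the other way, with 1.36 (1.20 to 1.54) and 0.720 (0.426 to 1.23) for *BCL2L11* and 1.08 (1.01 to 1.16) and 0.698 (0.378 to 1.30) for *BIK*. Per non-mitochondrial UMIs, the levels of *PMAIP1* in the cells dominated by mitochondrial UMIs were 108 in mock-treated and 156 in DAC-treated cells on the CPM scale, a ratio under 1.5-fold, so that its side of the limit depended on the scale.

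The other genes of the death machinery were grouped by their known roles, and the counts of each list stand beside 31.3% of all genes higher and 13.7% lower. Of 11 further BCL2 family genes with 100 UMIs or more, 3 were higher and 2 were lower by 1.5-fold, with a median log2 ratio of 0.43. *BCL2L12* had 2306 UMIs in mock-treated and 7195 in DAC-treated cells, a ratio of 2.64 (2.52 to 2.77). *BCL2*, the founding anti-death gene, had only 38 and 110 UMIs, a ratio of 2.45 (1.68 to 3.64). *BBC3*, which encodes the BH3-only protein PUMA, had 2354 and 1151 UMIs, a ratio of 0.413 (0.385 to 0.444), close to that of *HRK*. *BAX*, the other effector, had 3965 and 6921 UMIs, and its ratio of 1.48 (1.42 to 1.53) was smaller than that of *BAK1*, with intervals that did not overlap. *BAX* is named here after its value was seen, as the gene of the other effector.

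Of 17 genes of mitochondrial release and caspases, 7 were higher and 1 was lower, beside the 31.3% and 13.7% of all genes, with a median log2 ratio of 0.40. Of 7 inhibitor of apoptosis genes, 3 were higher and 1 was lower, with a median of 0.31. *BIRC3*, an inhibitor of apoptosis and NF-κB target, had 200 and 1405 UMIs, a ratio of 5.94 (5.12 to 6.92), the largest among the listed genes with 100 UMIs or more. Of 9 genes of death receptors and their adaptors with 100 UMIs or more, 3 were higher and 3 were lower, and none reached 2-fold. The medians of these lists lay between 0.31 and 0.43, beside 0.25 over all genes, and each list held genes on both sides of 0.

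Of 20 genes known to regulate members, 6 were higher and 3 were lower, close to the 31.3% and 13.7% of all genes, with a median log2 ratio of 0.42. *DDIT3* and *ATF4*, transcription factors of the stress response, were lower in DAC-treated cells, with ratios of 0.235 (0.224 to 0.246) and 0.455 (0.444 to 0.467). *MDM2*, which encodes a ubiquitin ligase, had 1762 and 4583 UMIs, a ratio of 2.20 (2.08 to 2.32). These stress factors and *MDM2* thus differed in opposite directions.

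**Figure D4:**
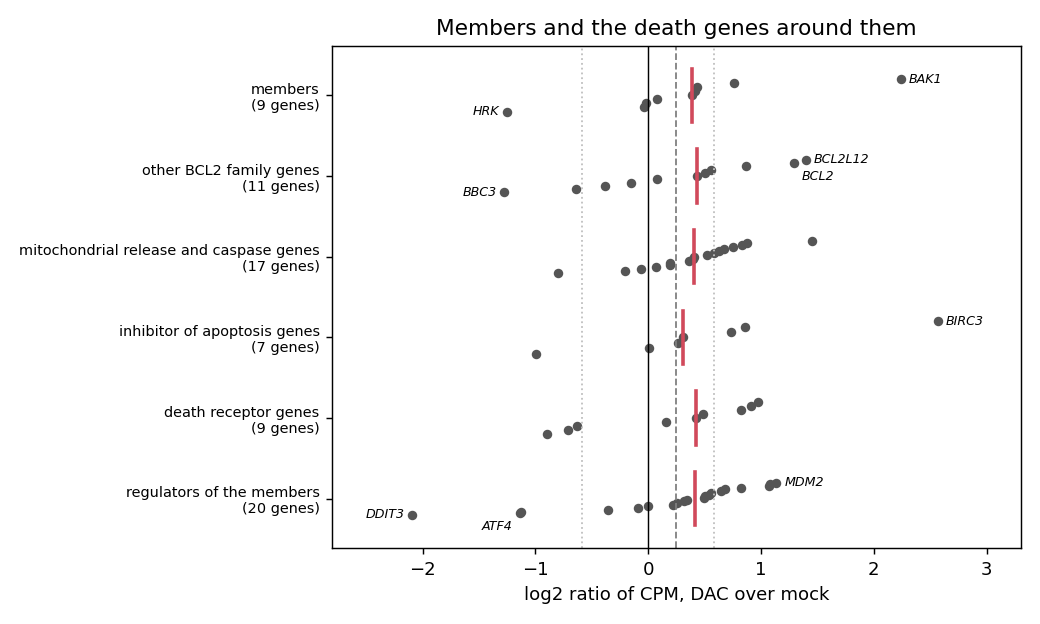
Log2 ratio of CPM in DAC-treated over mock-treated cells (horizontal axis) for genes with 100 UMIs or more in the members and 5 lists of death genes. Each point is a gene, red bars are list medians, the dashed line is the median of all genes (0.25), and dotted lines mark 1.5-fold; list medians lie between 0.31 and 0.43, and named genes lie far from them.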

How the data were processed

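Per the labels and the methods of the study, 1 library per condition was prepared with a 3′ kit. The authors deposited raw counts of UMIs for each gene in each cell, which were not normalized, and the submitters' processing notes name Cell Ranger and hg38. The annotation release, the filter on cells, and the use of strand are not given in the sources used here. Every deposited cell was kept, and no doublet caller was run. Sums over cells were divided by library totals in Python 3.11.15 (scipy 1.17.1; numpy 2.4.6; pandas 2.3.3), and figures were drawn in matplotlib 3.10.9. Drawing 10000 UMIs per cell without replacement removed the 395 and 458 shallower cells of the mock- and DAC-treated library. Sums, intervals, and drawing were tested on simulated data. No p-value is given with 1 library per condition.

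All 10 members are named. From each further list, genes at 2-fold or more with 100 UMIs or more were named, at most 4 per list, by the size of the ratio. Some genes that this rule names are not reported here. Members and lists were chosen with earlier results of these data known. The genes most like a member were the 3 with the highest correlation over cells with 10000 UMIs or more. Alternatives were another scaling, the mean of per-cell CPM, filters on cells, other depths, and other limits. Positions are from GENCODE release 44 on hg38.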

Additional observations from a re-analysis of the deposited data

How the results depend on the processing

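Among the alternatives, scaling by the median of ratios moved the most values. It lowered the median log2 ratio of the members from 0.39 to 0.20 and left 1 member higher by 1.5-fold in place of 2. With 2-fold as the limit, 1 member was also higher. The other scalings, cell filters, and no minimum of UMIs left the counts at 2 higher and 1 lower. Among members whose difference in shares of cells had an interval without 0, the sign was opposite for *BID* without thinning (-0.51 points), for *BCL2L11* (-0.20) and *PMAIP1* (0.68) with 1007 UMIs per cell, and for *PMAIP1* with 3 UMIs for detection (0.29). *BIK* and *MCL1*, whose intervals included 0, also changed sign between settings. At 1007 UMIs, under 10% of mock-treated cells had a UMI of each member, which limits these shares. Leaving out cells dominated by mitochondrial UMIs at 10000 UMIs per cell was added after the data were seen. No paired analysis was possible because each condition had 1 library, and no replicate could be left out.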
